A study of Mus musculus with 23 samples.

Results

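The comparison described here sets tumor cells that express BRAFV600E together with PI3KαH1047R against tumor cells that express BRAFV600E alone, over all weeks after tumor initiation. It was made on 14 of the 23 RNA sequencing libraries, chosen by title: 8 BRAF/PI3KαH1047R libraries (genotype CAT/+; HR/+) and 6 BRAF libraries (genotype CAT/+). The mice were 3 to 4 months old and of mixed C57BL/6, 129 and FVB background, and carried a Braf allele that switches from normal BRAF to BRAFV600E, linked to the red fluorophore tdTomato, once CRE has acted. Every mouse received adenovirus with CRE under the Sftpc promoter, which restricts recombination to alveolar type 2 (AT2) pneumocytes, and the second genotype also carried a conditional Pik3ca allele encoding the H1047R mutant. Lungs were taken at 2, 6 and 12 weeks post-initiation (p.i.), with 1, 3 and 2 BRAF libraries and 2, 4 and 2 BRAF/PI3KαH1047R libraries. Mice taken at 12 weeks had been given a lower viral titer, so week and titer cannot be told apart. The tdTomato+ cells were sorted by flow cytometry, and their RNA was amplified before sequencing.

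PI3Kα is the lipid kinase that makes the membrane signal read by AKT and, further on, by MTORC1 and the FOXO transcription factors. H1047R lies in its kinase domain and raises its activity without an upstream receptor. AT2 pneumocytes make pulmonary surfactant, renew the alveolar epithelium and secrete innate defence proteins, and BRAFV600E in these cells gives slowly growing benign tumors.

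The question put to the data was which genes, of all those measured, differ between the genotypes when week is held constant. Of 35455 genes in the table, 17558 had a mean normalized count of at least 10 over the 14 libraries and were tested. Very few differed by more than the spread between libraries allowed: 3 genes rose with PI3KαH1047R (0.0171% of genes tested) and 1 fell (0.0057%), at an adjusted p-value under 0.05. The genes that rose were Mettl7a2, Mettl7a3 and Gm47021, and the gene that fell was Eif5al3-ps. At an unadjusted p under 0.05, 643 genes were higher (3.66%) and 618 lower (3.52%), and no gene is called from that count. In 15 genes every BRAF/PI3KαH1047R library lay above every BRAF library (0.0854%), and in 22 every one lay below (0.125%). Differences are given as log2 (normalized count + 1) with week in the fit, positive where the value was higher with PI3KαH1047R, ± SE, over 8 and 6 libraries. Their p-values measure the spread between these libraries only. For genes that did not pass the adjusted test, the exact p is from a two-sided permutation of genotype labels within weeks, and 0.00159 is the smallest it can give. It is not given for genes chosen because their libraries do not overlap, where the choice all but fixes it, and for genes chosen by their p it describes them and is not further support.

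**Figure D1:**
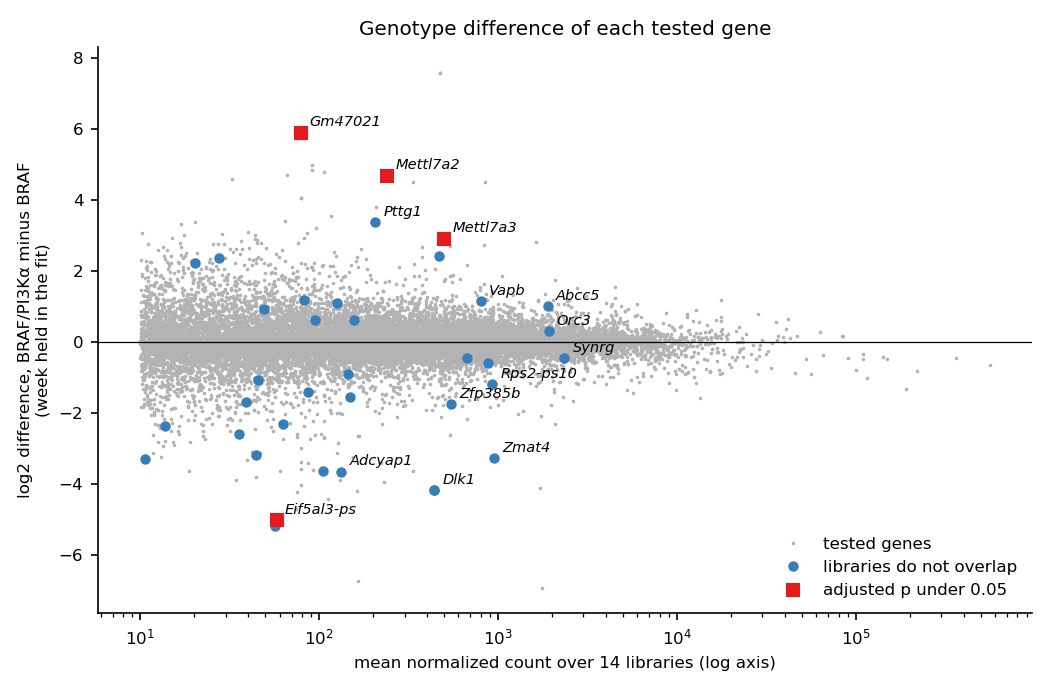
The log2 difference between genotypes (vertical axis, positive where higher with PI3KαH1047R) is plotted against mean normalized count on a log axis (horizontal) for the 17558 genes tested. The 4 genes with an adjusted p under 0.05 and the other genes whose libraries do not overlap are marked, and the median difference of all genes is 0.01.

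Some libraries stood apart before genotype was considered. On the first principal component, which held 25.7% of the variance, the BRAF/PI3KαH1047R tumors 1 and 2 at 2 weeks and 1 at 6 weeks scored 127, 108 and 98.3, where the other 11 libraries lay between -93.7 and 23.6. Those 3 libraries had AT2 marker sums of 77013 to 302426 normalized counts against 529591 or more in all others, and endothelial marker sums of 142119 to 238131 against 123413 or less. Library totals were 16433820 to 20287296 normalized counts, 19803 to 21817 genes were above 0, and Pearson's r between libraries was 0.78 to 0.93. The Y-linked genes went against the labelled sex in both 12-week BRAF/PI3KαH1047R libraries: Kdm5d had 502 normalized counts in the library labelled male and 4728 in the library labelled female. The BRAF libraries were labelled 5 female and 1 male, and the BRAF/PI3KαH1047R libraries 3 female and 5 male. The point mutations are not checked by expression. Pik3ca itself (chr3:32397671-32468486, GRCm38) was -0.53 ± 0.27 (exact p = 0.0841), with counts of 3891, 4544 and 5933 in BRAF tumors and 1376, 3858 and 4703 in BRAF/PI3KαH1047R tumors as lowest, median and highest library, and Braf was -0.17 ± 0.20 (exact p = 0.443).

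The Mettl7a genes encode methyltransferase-like proteins of the endoplasmic reticulum and lipid droplet membrane. The 3 mouse copies lie side by side on the plus strand of chromosome 15 (GRCm38, GENCODE vM21), Mettl7a1 at chr15:100304140-100328662, Mettl7a3 at chr15:100334929-100340375 and Mettl7a2 at chr15:100353200-100361840. Their coding sequences are nearly identical: 7 of 732 bases differ between Mettl7a2 and Mettl7a3 (99.0% identity) and 39 between Mettl7a2 and Mettl7a1 (94.7%). The first 90 coding bases are shown because single reads of 50 cycles had to be divided among these copies, and capitals mark each position at which the 3 copies are not all the same.
Mettl7a2: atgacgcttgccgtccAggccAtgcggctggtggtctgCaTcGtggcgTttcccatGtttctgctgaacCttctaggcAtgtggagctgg
Mettl7a3: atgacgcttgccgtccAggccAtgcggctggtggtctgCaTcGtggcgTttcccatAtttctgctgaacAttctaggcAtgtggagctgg
Mettl7a1: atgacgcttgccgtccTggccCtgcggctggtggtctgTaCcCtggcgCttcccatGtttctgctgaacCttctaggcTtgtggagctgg
In this stretch 9 positions are in capitals, and Mettl7a2 and Mettl7a3 differ at 2 of them.

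Mettl7a2 had the smallest p of all genes tested. Its lowest, median and highest normalized counts were 6.08, 15.9 and 23.3 in BRAF tumors and 211, 376 and 652 in BRAF/PI3KαH1047R tumors. The genotypes were far from overlapping, and Mettl7a2 rose by 4.69 ± 0.32 log2 units (95% interval 4.00 to 5.38, limma adjusted p = 1.27e-05). By week the difference was 4.46, 4.85 and 4.58 at 2, 6 and 12 weeks. Mettl7a3 counts were 53.8, 72.4 and 196 in BRAF tumors and 389, 636 and 1421 in BRAF/PI3KαH1047R tumors, again without overlap. Mettl7a3 rose by 2.91 ± 0.26 (adjusted p = 1.62e-04), and by 2.76, 2.79 and 3.23 at the 3 weeks. Mettl7a1, the most abundant copy, overlapped widely between genotypes, with counts of 6196, 9161 and 13304 in BRAF tumors and 5522, 9463 and 22146 in BRAF/PI3KαH1047R tumors. Its difference was 0.15 ± 0.24 (95% interval -0.37 to 0.68, exact p = 0.568).

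The Mettl7a calls rest on how reads were divided among near-identical copies. Of the 31-base words in Mettl7a2 transcripts, 72.2% also occur in transcripts of another gene, 46.9% in Mettl7a3 and 38.9% in Mettl7a1, and of those in Mettl7a3 60.9% occur elsewhere. The summed normalized counts of the 3 copies were 6269, 9248 and 13523 in BRAF tumors and 6223, 10439 and 24004 in BRAF/PI3KαH1047R tumors, and overlapped. The log2 difference of the sum was 0.28 (exact p = 0.302). Mettl7a1 makes up most of that sum, so it does not bear on whether the smaller copies differed. The levels of Mettl7a2 and Mettl7a3 are uncertain because of the shared words, and whether the copies or the assignment of reads differed between genotypes was not tested.

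**Figure D2:**
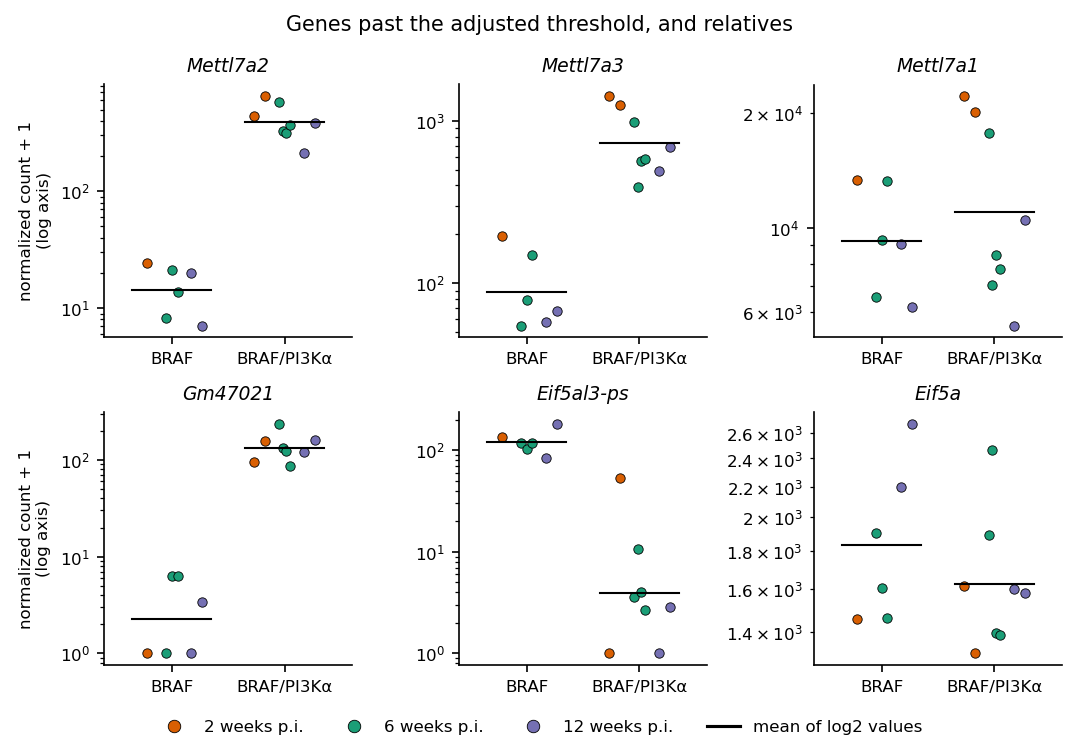
Normalized count + 1 on a log axis in each of the 14 libraries, by genotype, for the 4 genes past the adjusted threshold and for the parent or sister genes Mettl7a1 and Eif5a. Points are libraries, colored by week p.i., and lines are means of the log2 values. The 4 called genes separate the genotypes, while Mettl7a1 and Eif5a overlap.

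The other 2 genes past the threshold are processed pseudogenes, copies of a mature mRNA put back into the genome. Gm47021 lies on the minus strand at chr13:12259793-12260270. Its counts were 0, 1.21 and 5.30 in BRAF tumors and 85.5, 126 and 235 in BRAF/PI3KαH1047R tumors, and it rose by 5.90 ± 0.52 (95% interval 4.78 to 7.02, adjusted p = 1.62e-04). Almost no signal was assigned to it in any BRAF tumor. Of its 31-base words, 48.4% occur in transcripts of Dazap2, the gene of a small adaptor protein. Dazap2 counts of 6123, 8458 and 11131 in BRAF tumors and 4827, 7489 and 13745 in BRAF/PI3KαH1047R tumors overlapped, at -0.21 ± 0.24 (adjusted p = 0.906). The shared words make the level of Gm47021 uncertain, and Dazap2 is too abundant for a sum of both to bear on it.

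Eif5al3-ps lies on the plus strand at chr5:90132229-90132675 and is a copy of Eif5a, which encodes a translation elongation factor. It matches the Eif5a coding sequence at all but 23 of 447 bases (94.9% identity), and bases 228 to 317 are shown for the same reason as above, with differences in capitals.
Eif5al3-ps: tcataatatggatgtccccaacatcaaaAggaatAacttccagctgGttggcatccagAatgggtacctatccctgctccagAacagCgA
Eif5a: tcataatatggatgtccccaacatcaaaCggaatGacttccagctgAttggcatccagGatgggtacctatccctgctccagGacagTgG
Counts of Eif5al3-ps were 83.1, 117 and 182 in BRAF tumors and 0, 2.20 and 52.8 in BRAF/PI3KαH1047R tumors, and it fell by 5.02 ± 0.76 log2 units (adjusted p = 0.0486). Eif5a was -0.14 ± 0.18 (exact p = 0.405), with counts of 1456, 1755 and 2672 in BRAF tumors and 1311, 1591 and 2464 in BRAF/PI3KαH1047R tumors. The call for Eif5al3-ps was kept in 12 of the 33 alternative analyses, against 32 for Mettl7a2 and 31 for Mettl7a3 and for Gm47021. None of the 4 kept its call when the 7 libraries at 6 weeks were left out, where 0 genes passed, although the differences kept their size: over the 33 alternatives they were 4.41 to 5.04 for Mettl7a2, 2.65 to 3.10 for Mettl7a3, 4.58 to 6.51 for Gm47021 and -5.51 to -3.91 for Eif5al3-ps, each with an unadjusted p under 0.05 in all 33.

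The 37 genes whose libraries did not overlap were then read for what else they held. Of these, 26 were protein coding and 7 were processed pseudogenes (18.9%, against 6.24% of genes tested). Those with a position in the annotation lay on all autosomes but chromosome 6 and on the X chromosome. On chromosome 3, which holds Pik3ca, the share of genes with an unadjusted p under 0.05 was 6.69%, within the range of 5.24% to 8.65% over all chromosomes.

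Among the higher genes, Pttg1 encodes securin, the inhibitor of separase that holds sister chromatids together until anaphase. Pttg1 counts were 4.29, 36.3 and 72.5 in BRAF tumors and 81.5, 265 and 961 in BRAF/PI3KαH1047R tumors. No library overlapped, and the difference was 3.37 ± 0.61 (adjusted p = 0.103). Other mitotic genes did not show such a difference: of 33 tested G2 and mitosis genes none had an unadjusted p under 0.05, with a median of -0.21. Only 0.52% of Pttg1 words occur in another gene.

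Vapb, an endoplasmic reticulum protein of membrane contact sites, had counts of 250.2, 473 and 650.4 in BRAF tumors and 770.1, 1046 and 1544 in BRAF/PI3KαH1047R tumors. Abcc5, an ATP-driven exporter of the multidrug resistance family, had 795, 1134 and 1561 in BRAF tumors and 1612, 2099 and 4036 in BRAF/PI3KαH1047R tumors. The differences were 1.16 ± 0.24 and 1.02 ± 0.23 (adjusted p = 0.167 and 0.232). Wdr25, a WD-repeat protein, had 47.0, 75.0 and 97.1 in BRAF tumors and 115, 149.5 and 261 in BRAF/PI3KαH1047R tumors (1.11 ± 0.26). Def6, an exchange factor for small GTPases best known in lymphocytes, had 0.839, 10.3 and 15.4 in BRAF tumors and 17.9, 42.5 and 65.8 in BRAF/PI3KαH1047R tumors (2.37 ± 0.51). Other higher genes without overlap were Nudt6 (1.17), Pate2 (0.94), Tmem41a (0.63), Asb18 (0.63) and Orc3 (0.31), a subunit of the origin recognition complex. Orc3 had counts of 1263 to 1844 against 1861 to 2672, which shows how narrow such a gap can be.

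Other higher genes, ranked by p among those with a mean of at least 100, overlapped in a few libraries. Nxpe4 had counts of 3.21, 10.7 and 152 in BRAF tumors and 141, 210.3 and 894 in BRAF/PI3KαH1047R tumors (3.80 ± 0.75, exact p = 0.00317). Colgalt1, which adds galactose to collagen, St3gal4, a sialyltransferase, and Bin2, a membrane-bending protein of blood cells, were 0.82, 1.05 and 1.03 (exact p = 0.00317, 0.00317 and 0.00159). Dynlt1, a dynein light chain, had 0, 3.17 and 87.7 in BRAF tumors and 49.4, 128 and 442 in BRAF/PI3KαH1047R tumors (4.80 ± 0.83). The sum of the 4 Dynlt1 copies gave 0.23 (exact p = 0.256), at medians of 972 and 1051, and is too large beside Dynlt1 to show whether that gene differed.

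Among the lower genes that did not overlap was Dlk1, an imprinted gene for a transmembrane protein related to Notch ligands. Its counts were 324, 713 and 1840.0 in BRAF tumors and 0.566, 55.7 and 234 in BRAF/PI3KαH1047R tumors. The difference of -4.16 ± 0.82 was -6.08, -4.32 and -2.61 at 2, 6 and 12 weeks (adjusted p = 0.146). The feature AC165954.1 has the same 14 values as Dlk1, and both are among the 22 lower genes counted above, so that count holds this measurement in duplicate. Adcyap1, which encodes the neuropeptide PACAP, had 135, 224 and 447 in BRAF tumors and 0, 31.7 and 81.1 in BRAF/PI3KαH1047R tumors (-3.65 ± 0.93). Zmat4, a zinc finger gene, had 842, 1506 and 3289 in BRAF tumors and 12.3, 268 and 709 in BRAF/PI3KαH1047R tumors (-3.26 ± 0.65). The lowest BRAF library exceeded the highest BRAF/PI3KαH1047R library in each of these.

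The BEX genes, short X-linked genes expressed in neural and endocrine cells, held further lower members. Bex1 had counts of 43.2, 79.8 and 148 in BRAF tumors and 0, 7.46 and 36.0 in BRAF/PI3KαH1047R tumors (-3.17 ± 0.78) and Bex2 had 162, 219 and 349 in BRAF tumors and 23.6, 105 and 146 in BRAF/PI3KαH1047R tumors (-1.55 ± 0.42). Of 7 tested BEX and TCEAL genes, 4 were lower at an unadjusted p under 0.05 and 0 higher, with a median of -0.72 where the median of all genes was 0.01. Bex4 was -1.16 ± 0.40 and overlapped, at 173 to 739 against 73.9 to 333. The list's highest member was at 0.84. Without the 3 libraries that stood apart 2 were lower and the median was -0.26. Of the 31-base words of Bex1 and Bex2, 30.0% and 35.5% occur in other genes, mainly of their own family.

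Transcription factors were also among the lower genes. Foxa3, a forkhead factor of endoderm, had counts of 37.1, 61.9 and 103 in BRAF tumors and 2.52, 5.31 and 31.5 in BRAF/PI3KαH1047R tumors (-2.60 ± 0.55). Zfp385b, a zinc finger gene, had 746, 838 and 1011 in BRAF tumors and 73.5, 254 and 637 in BRAF/PI3KαH1047R tumors (-1.76 ± 0.37). Sox9, a factor of distal lung progenitors, had 96.1, 414 and 748 in BRAF tumors and 29.4, 74.6 and 219.9 in BRAF/PI3KαH1047R tumors and overlapped (-2.00 ± 0.50, exact p = 0.00952). Ppargc1a, which encodes the coactivator PGC1α, had 349.5, 711 and 1088 in BRAF tumors and 51.9, 222 and 415 in BRAF/PI3KαH1047R tumors (-1.91 ± 0.43, exact p = 0.00476). Of 31 tested lung lineage factors 5 were lower and 1 higher, with a median of -0.26, and without the 3 libraries that stood apart 4 were lower and 1 higher, with a median of -0.13. The higher factor was Sox17 (1.33), an endothelial marker in lung.

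Further genes without overlap were Fhit (-3.29), from a fragile site, Rprm (-2.38), a p53-induced G2 arrest gene, Synrg (-0.44), Acss3 (-0.46) and Olfr149 (-1.08). Fhit had counts of 6.70 to 41.2 against 0 to 5.90, and Rprm 11.6 to 49.0 against 0.801 to 10.1. Raet1d and H60c encode ligands of NKG2D, the activating receptor of natural killer cells. Raet1d had 65.4, 97.1 and 236 in BRAF tumors and 0, 0 and 47.3 in BRAF/PI3KαH1047R tumors (-5.19 ± 0.88) and H60c had 84.4, 206 and 303 in BRAF tumors and 2.42, 32.0 and 89.2 in BRAF/PI3KαH1047R tumors (-2.72 ± 0.62, exact p = 0.00635). Since 67.1% of Raet1d words occur in Raet1e, the 4 H60 and Raet1 genes were summed. Counts were 381, 559 and 1031 in BRAF tumors and 93.2, 253 and 431 in BRAF/PI3KαH1047R tumors, a difference of -1.49 (exact p = 0.00635). The sum holds Raet1d, chosen for its lack of overlap, and H60c, chosen by its p, so its exact p is not further support.

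**Figure D3:**
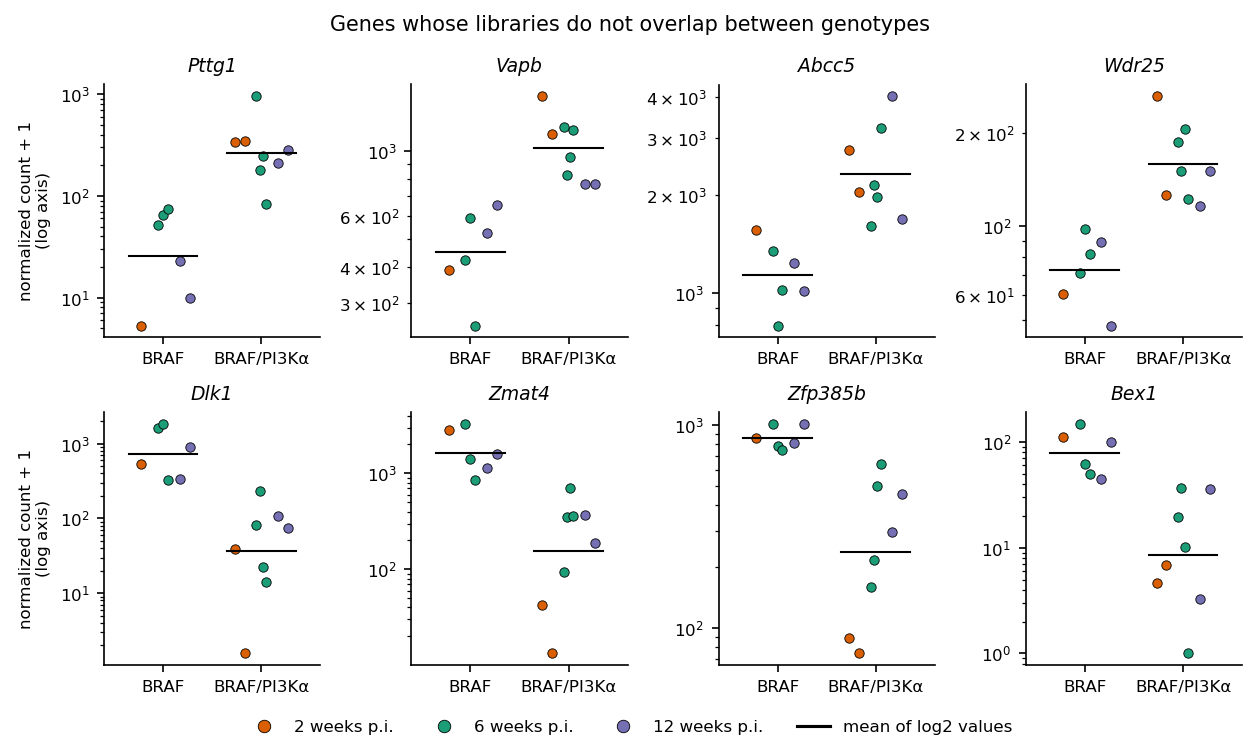
Per-library normalized count + 1 on a log axis for genes whose libraries do not overlap between genotypes, 4 of them higher (top) and 4 lower (bottom) with PI3KαH1047R. Points are libraries, colored by week p.i., and lines are means of the log2 values. The higher genes such as Pttg1 (4.29 to 72.5 against 81.5 to 961) and the lower genes such as Dlk1 (324 to 1840.0 against 0.57 to 234) each leave a gap between the genotypes.

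Other lower genes ranked by p overlapped in some libraries. Lbp, the lipopolysaccharide binding protein, had counts of 1181, 3438 and 5086 in BRAF tumors and 335, 1116 and 2025 in BRAF/PI3KαH1047R tumors (-1.41 ± 0.24, exact p = 0.00159). C5ar2, a receptor for complement C5a, had 183, 320.4 and 547 in BRAF tumors and 41.4, 87.6 and 229.9 in BRAF/PI3KαH1047R tumors (-1.95 ± 0.36). Pla2g1b, a secreted phospholipase, was -1.70 ± 0.37, and by week -3.86, -1.54 and -0.53. Nrn1, the neurite factor neuritin, Stx11, a syntaxin, Aass, of lysine breakdown, and Rnase4, a secreted ribonuclease, were -2.10, -0.93, -1.38 and -0.87 (exact p = 0.00159, 0.00159, 0.00317 and 0.00476).

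Other pseudogenes were among the genes ranked by p or without overlap, some with a parent gene at an unadjusted p under 0.05 and some not. Rps2, a small ribosomal subunit gene, was higher at 1.85 ± 0.38 (counts 67.5, 87.2 and 666 in BRAF tumors and 336, 407 and 597 in BRAF/PI3KαH1047R tumors). Rps2-ps10, a pseudogene that holds 40.3% of the words of Rps2, was lower at -1.19 ± 0.20 (1025, 1247 and 2267 in BRAF tumors and 299, 637 and 775 in BRAF/PI3KαH1047R tumors). Of the words of Rps2-ps10, 82.1% occur in Rps2, so both values are uncertain. The sum of Rps2 and its 10 pseudogenes was lower, with a difference of -0.48 (exact p = 0.00476). Its BRAF median was 1503, beside 1247 for Rps2-ps10, which was chosen for its lack of overlap, so this p is not further support. Gm5514, which shares 54.2% of its words with Ldhb, was -1.40 ± 0.36, and Ldhb itself -0.94 ± 0.35. Tmem181b-ps was 2.44 ± 0.43 and the 3 Tmem181 loci summed were higher, at 1.36 (exact p = 0.00159). Tmem181b-ps is part of that sum and was also chosen for its lack of overlap, so this p is not further support either. Gm15920, of which 85.0% occurs in Ndufa12, was -0.89, and Ndufa12 0.02 ± 0.32. Gm13410 shared 31.8% with Ddx6 and Gm19587 38.8% with Arf1, and they were -2.31 and -1.70, where Ddx6 was -0.05 ± 0.14 and Arf1 -0.03 ± 0.15.

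Gene lists gave a second view, in which each list is described by its members at an unadjusted p under 0.05 and by its median log2 difference, beside 3.66% higher, 3.52% lower and a median of 0.01 over all genes. The lists with the lowest medians held AT2 innate defence genes and mucins. Those with the highest, the METTL7A relatives aside, held macrophage, endothelial, smooth muscle and interferon genes. No member of any list passed the adjusted test other than Mettl7a2 and Mettl7a3. These counts moved with the 3 libraries that stood apart, and values without them are given beside the lists described most fully.

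**Figure D4:**
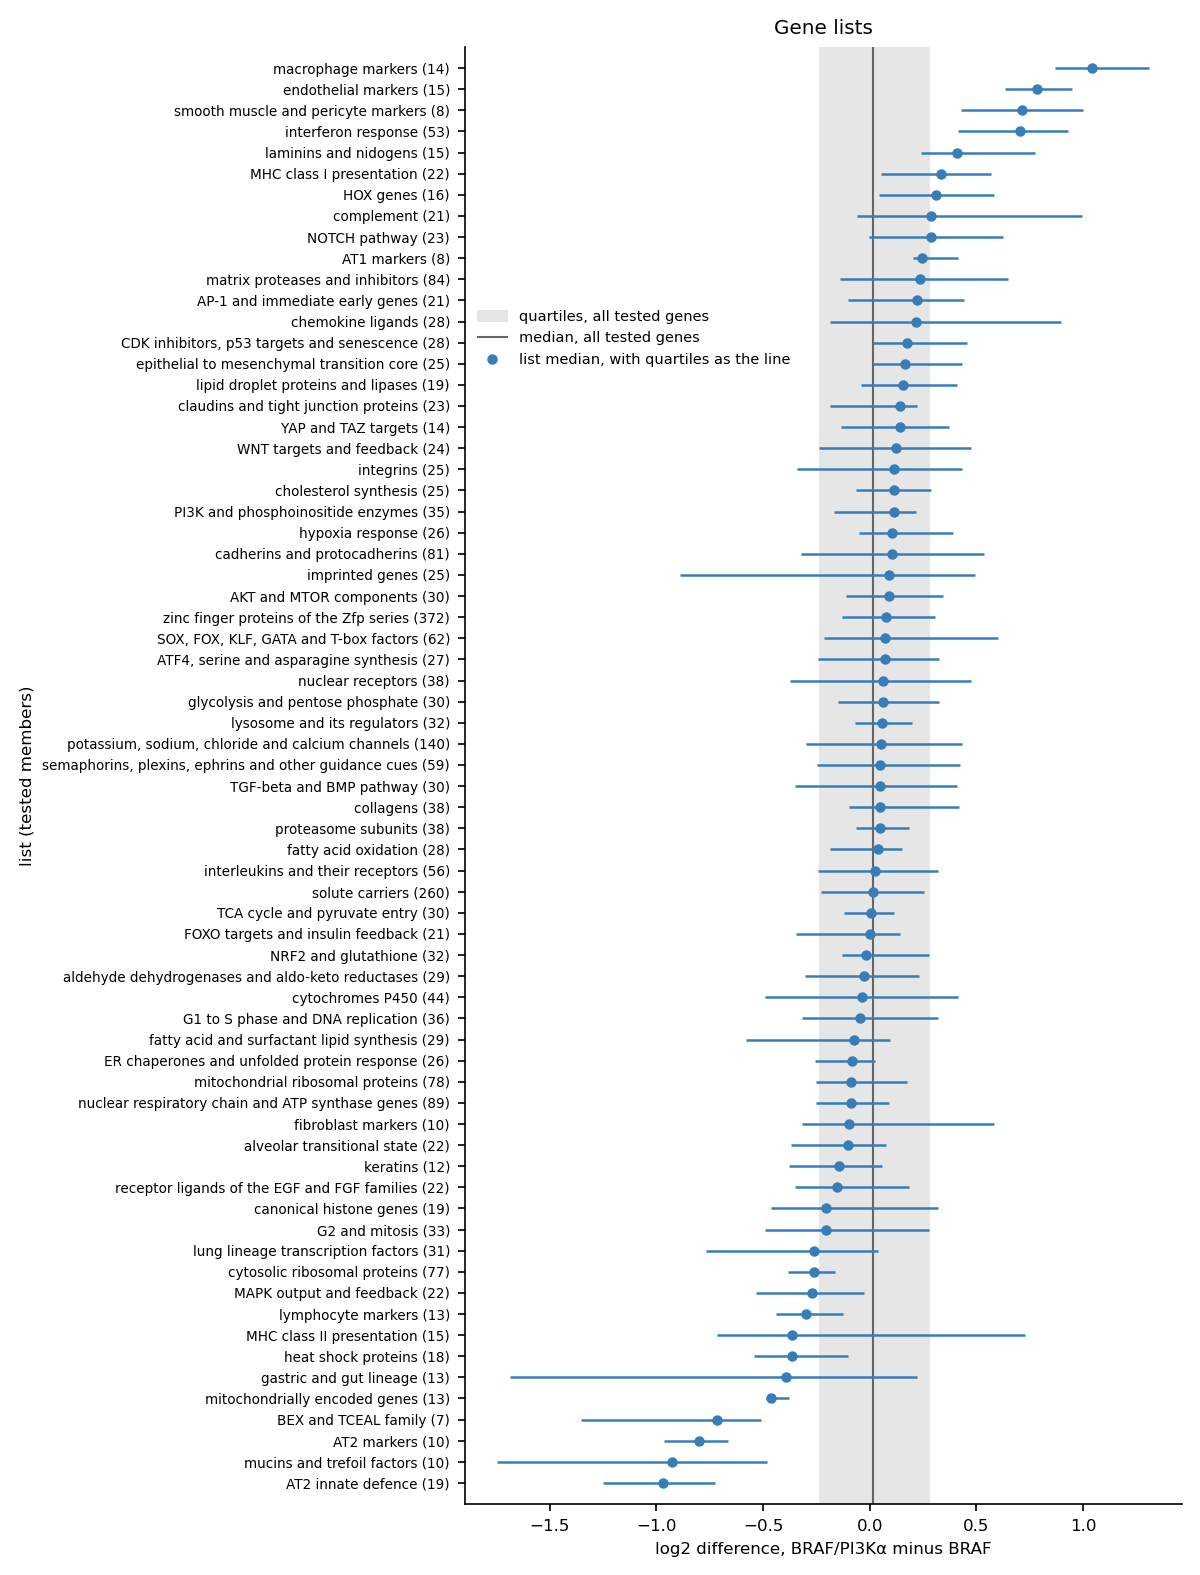
Points give the median log2 difference between genotypes in each list with at least 7 tested members and lines its quartiles, with the number of tested members in parentheses. The grey band and vertical line give the quartiles and the median of all genes tested. AT2 innate defence (median -0.97, 11 lower) lies at the low end, and macrophage markers (median 1.04, 6 higher) and interferon response (0.70, 9 higher) at the high end.

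Genes of the AT2 innate defence list, which also holds mucins and Il33, were among the lower genes. Of 19 tested, 11 were lower and 0 higher, with a median of -0.97, and without the 3 libraries 4 were lower with a median of -0.48. In the week fit 3 members had a positive difference, up to 2.20. With the AT2 marker score in the fit the median was -0.16. Besides Lbp the lower ones were Muc5b (-1.90), Muc4 (-1.77), Sftpa1 (-1.34), Sftpd (-1.16), Il33 (-1.14), Lcn2 (-1.13), Muc1 (-0.98), Cxcl15 (-0.91), Lyz2 (-0.79) and Wfdc2 (-0.71). Il33 is an epithelial alarmin, Lcn2 binds bacterial siderophores, and the SFTPA and SFTPD proteins are collectins. Sftpa1 counts were 138454, 260956 and 463173 in BRAF tumors and 14612, 144099 and 234187 in BRAF/PI3KαH1047R tumors, and the difference by week was -3.45, -0.78 and -0.88. At 6 weeks Sftpa1 overlapped between genotypes. Of 10 mucins and trefoil factors 4 were lower (median -0.93, without the 3 libraries 2 with a median of -0.42), with Muc20 at -2.02 ± 0.60 (1266, 2014 and 3223 in BRAF tumors and 24.6, 811 and 1454 in BRAF/PI3KαH1047R tumors). AT2 markers had 4 of 10 lower and a median of -0.80, which was -0.12 without the 3 libraries, with 1 lower. In bulk RNA, fewer cells of a type and less RNA per cell cannot be told apart.

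Antigen presentation genes were counted by class. Of 22 class I genes 4 were higher and 1 lower, with a median of 0.33. The higher ones were H2-T22 (1.69), H2-Q6 (1.30), H2-Q7 (1.17) and Tap1 (1.10), and the lower one was Calr (-0.46), a chaperone of the endoplasmic reticulum. Tap1, a subunit of the peptide transporter, had counts of 95.7, 192 and 298 in BRAF tumors and 237, 361 and 1583 in BRAF/PI3KαH1047R tumors (1.10 ± 0.36, exact p = 0.00159). The H2-Q and H2-T genes share sequence and their single values are uncertain. Of 15 class II genes 5 were lower and 1 higher, with a median of -0.36. The lower ones were H2-DMb1 (-1.05), H2-DMb2 (-1.02), H2-Aa (-0.91), Cd74 (-0.73) and H2-DMa (-0.69). H2-DMb2, a subunit of the peptide exchanger of class II, had 307, 360.3 and 583 in BRAF tumors and 107, 184 and 334 in BRAF/PI3KαH1047R tumors (-1.02 ± 0.26, exact p = 0.00317). Without the 3 libraries the class II median was 0.10 and the class I median 0.06, so neither is read as a shift of the whole list, and the classes were not tested against each other.

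Interferon response genes, which antiviral and inflammatory signals induce, were among those higher at an unadjusted p under 0.05. Of 53 tested 9 were higher and 0 lower, with a median of 0.70. Mx2, an antiviral GTPase, had counts of 0, 4.02 and 25.4 in BRAF tumors and 16.7, 77.7 and 439.5 in BRAF/PI3KαH1047R tumors (4.05 ± 0.77, adjusted p = 0.128, exact p = 0.00159). The others included Trim30a (1.46), Iigp1 (1.45), Bst2 (1.44), Ddx60 (1.27), Dhx58 (1.05), Parp12 (0.66) and Parp14 (0.60). Bst2, tetherin, had 9.34, 22.8 and 70.0 in BRAF tumors and 24.4, 60.8 and 159 in BRAF/PI3KαH1047R tumors, and overlapped. The list's median was 0.55 without the 3 libraries, with 2 genes higher, and -0.11 with the macrophage marker score in the fit. The macrophage marker sum was 34646 in the BRAF/PI3KαH1047R tumor 1 at 12 weeks, and its part in the interferon values was not tested.

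The RefSeq promoters of Bst2 and Ddx60 (GRCm38.p6, 250 bases before to 50 after the start) are shown because they are among the interferon genes that were higher and hold matches to the interferon-stimulated response element, in capitals. The letters searched, on both strands, were GAAA, any 2 bases and GAAA.
Bst2, chr8:71537423-71537722, minus strand: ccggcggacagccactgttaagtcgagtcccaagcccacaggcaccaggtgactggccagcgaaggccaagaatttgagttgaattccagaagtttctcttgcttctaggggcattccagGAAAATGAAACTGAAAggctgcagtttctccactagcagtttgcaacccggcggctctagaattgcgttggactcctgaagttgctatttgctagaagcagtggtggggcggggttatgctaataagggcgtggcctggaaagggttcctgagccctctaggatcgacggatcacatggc
Ddx60, chr8:61927837-61928136, plus strand: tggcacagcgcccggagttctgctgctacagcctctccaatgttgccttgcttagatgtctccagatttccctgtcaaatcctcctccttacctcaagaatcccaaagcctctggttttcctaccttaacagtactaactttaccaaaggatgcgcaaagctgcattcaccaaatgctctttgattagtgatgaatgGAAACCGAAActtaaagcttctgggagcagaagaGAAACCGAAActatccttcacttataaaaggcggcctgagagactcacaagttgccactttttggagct
Each holds 2 matches, which overlap in Bst2. Of 12223 tested genes with a listed promoter, 489 hold a match (4.00%), and of the 38 interferon genes with one 22 do (57.9%). Of the 4 interferon genes with an unadjusted p under 0.05 and a promoter in the table, 3 hold a match. Over all genes the share was 3.65% of 438 higher and 2.85% of 386 lower, both under the 4.00% of all genes. The forkhead letters GTAAACA, searched the same way, were in 417 promoters (3.41%), in 18 of the 438 (4.11%) and in 16 of the 386 (4.15%).

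Some markers of other cell types had an unadjusted p under 0.05, and none passed the adjusted test. Of 14 macrophage markers 6 were higher and 0 lower, with a median of 1.04, and without the 3 libraries 4 were higher, with a median of 0.88. Their summed count ranged from 2925 to 9068 in BRAF tumors and from 4612 to 34646 with PI3KαH1047R. The higher ones were C1qc (1.95), Itgax (1.69), Mrc1 (1.31), Ear2 (1.31), C1qb (1.05) and Mertk (0.87), and C1qc had counts of 4.34, 11.1 and 53.3 in BRAF tumors and 18.1, 42.3 and 327 in BRAF/PI3KαH1047R tumors. Endothelial markers had 3 of 15 higher and a median of 0.79, which was 0.02 without the 3 libraries, with 0 higher. The higher ones were Sox17, with the value given above, Vwf (0.90 ± 0.37), the clotting factor carrier of endothelium, and Esam (0.62 ± 0.28), an endothelial adhesion molecule. Neutrophil and lymphocyte markers had none with an unadjusted p under 0.05, at medians of -0.32 and -0.30, and Elane, which defines neutrophil precursors, was at 0 in all libraries. Fibroblast markers had 2 of 10 higher, Col3a1 (1.08) and Col1a1 (0.94), at a median of -0.10 with 6 members below 0, and without the 3 libraries 0 were higher and the median was -0.63. Erythroid markers had Hba-a1 (-1.12) and Hbb-bs (-1.04) lower, platelet markers Ppbp (-1.18) of 4, which ranged up to 1.35, and club cell markers Cyp2f2 (-1.12) of 4, at a median of -0.16 and up to 0.33. AT1 markers had Pdpn higher (0.52 ± 0.24) of 8. Smooth muscle, mesothelial, ciliated and epithelial markers had none, and the smooth muscle and pericyte median of 0.71 was -0.04 without the 3 libraries. The AT2 marker sum was 77013 to 1045741 with PI3KαH1047R and 529591 to 1464770 without, so the sorted cells carried AT2 markers in every library. What part other cells had in these differences was not tested.

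**Figure D5:**
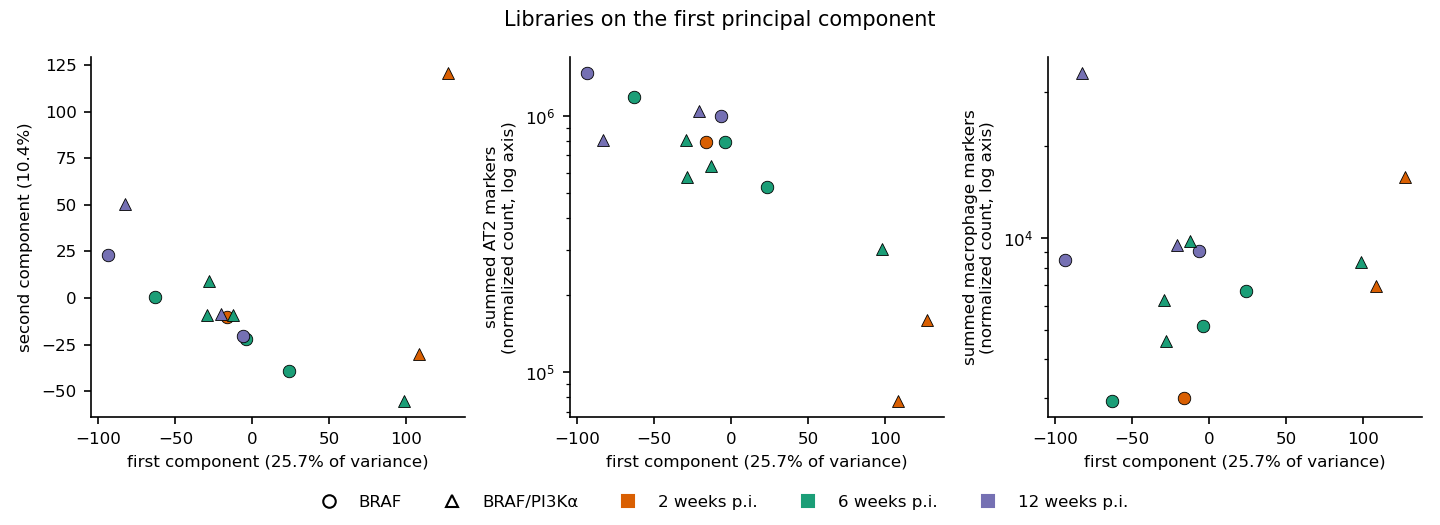
Each library is placed by its score on the first principal component (horizontal) and by its score on the second (10.4% of the variance) or the summed normalized counts of AT2 or macrophage markers on a log axis (vertical), with genotype as symbol and week p.i. as color. The 3 BRAF/PI3KαH1047R libraries with the highest scores (98.3 to 127) have the lowest AT2 sums, and the highest macrophage sum (34646) is in BRAF/PI3KαH1047R tumor 1 at 12 weeks.

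Genes of the PI3K pathway itself gave small or uncertain differences. Of 35 PI3K and phosphoinositide enzymes none had an unadjusted p under 0.05, the median was 0.11, and for 23 the 95% interval lay within 1 log2 unit of 0. Without the 3 libraries that stood apart 2 were lower, 0 higher, and the median was -0.06. Pik3r1, the regulatory subunit, was 0.12 ± 0.31. Of 30 AKT and MTOR components 2 were higher, Akt1 (0.50 ± 0.20, exact p = 0.00794) and Rragc (0.51 ± 0.21, exact p = 0.0397). Rragc is a GTPase that brings MTORC1 to the lysosome. Leaving out the same 3 libraries gave 1 higher and 1 lower, with a median of 0.06. Neither Akt1 nor Rragc kept an unadjusted p under 0.05 there. Akt1 counts were 285, 464 and 504 in BRAF tumors and 475, 567 and 803 in BRAF/PI3KαH1047R tumors. Of 21 FOXO targets and insulin feedback genes 3 were lower, Trib1 (-0.98), Cited2 (-0.85) and Irs2 (-0.79 ± 0.26), an adaptor of the insulin receptor. Irs2 counts were 895, 1409 and 1828 in BRAF tumors and 436, 959 and 1198 in BRAF/PI3KαH1047R tumors (exact p = 0.0206). The list's median was 0.00.

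The output of the MAPK pathway, which BRAFV600E drives in both genotypes, was lower in 2 of 22 genes and higher in none, with a median of -0.27. Without the 3 libraries that stood apart 0 were lower and the median was -0.05. The 2 lower genes were the ERK phosphatases Dusp5 (-1.19 ± 0.46, exact p = 0.0508) and Dusp6 (-0.72 ± 0.33, exact p = 0.081). Both exact tests missed 0.05. Of 21 AP-1 and immediate early genes 1 was lower, Egr1 (-0.87 ± 0.40, exact p = 0.105), while the list's median was 0.22 and -0.03 without the 3 libraries, and 14 of its members had a positive difference. Among growth factor receptors Fgfr2, which is typical of AT2 cells, was -0.84 ± 0.30 and Fgfr1 0.44 ± 0.17. Fgfr1 counts were 491, 542 and 666 in BRAF tumors and 588, 762 and 1301 in BRAF/PI3KαH1047R tumors (exact p = 0.0111).

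In some other signaling lists single members had an unadjusted p under 0.05, and none passed the adjusted test. In the TGF-beta and BMP list Tgfbr2, the type 2 receptor, was 0.40 ± 0.15 with counts of 3583, 4467 and 4858 in BRAF tumors and 4769.7, 5376 and 8079 in BRAF/PI3KαH1047R tumors (exact p = 0.00159). Bmp2, a ligand, was -1.28 ± 0.38 (284, 339 and 626 in BRAF tumors and 38.5, 185 and 331 in BRAF/PI3KαH1047R tumors, exact p = 0.00476), and Grem1, a BMP antagonist, -3.09 ± 0.79 (7.40, 87.7 and 168 in BRAF tumors and 0.793, 3.41 and 25.5 in BRAF/PI3KαH1047R tumors, exact p = 0.00794). In the NOTCH list the ligand Jag2 was 0.71 ± 0.32, beside Dlk1. WNT targets (median 0.12, 24 tested) and YAP and TAZ targets (0.14, 14 tested) had no member at an unadjusted p under 0.05 in limma.

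In metabolism, differences were spread over single genes. In glycolysis and the pentose phosphate pathway 3 of 30 were higher, Eno1 (0.90), Pkm (0.45) and Pgam1 (0.35), and 2 lower, Ldhb (-0.94) and Tkt (-0.42). The list's median was 0.06. Without the 3 libraries that stood apart 5 were higher and 1 lower, with a median of 0.23. Pkm, pyruvate kinase, had counts of 1764, 2069 and 2209 in BRAF tumors and 2093, 2455 and 5304 in BRAF/PI3KαH1047R tumors (exact p = 0.00794). Eno1 is not firm, since 27.8% of its words occur in the retrogene Eno1b: the sum of both differed by 0.31 (exact p = 0.275). Ldhb and Gm5514 summed were lower, at -1.02 (exact p = 0.0127). Ldhb was chosen by its p and Gm5514 for its lack of overlap, so the p of their sum is not further support. Of the 13 mitochondrially encoded genes 2 were lower, mt-Nd3 (-0.66) and mt-Atp6 (-0.52), with a median of -0.46, which was -0.07 without the 3 libraries, with 0 lower. Of 89 nuclear respiratory chain genes 4 were lower, Cox6b2 (-1.31), Atp5g2 (-0.74), Cox8a (-0.58) and Uqcrc2 (-0.54), and the median was -0.09. Uqcrc2, a core subunit of complex III, had 907, 1149 and 1641 in BRAF tumors and 434, 830.3 and 937 in BRAF/PI3KαH1047R tumors (exact p = 0.0143). In the tricarboxylic acid cycle Idh2 was -0.61 ± 0.26, and 26 of 30 genes had an interval within 1 log2 unit of 0.

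Lipid genes went both ways. In cholesterol synthesis Hsd17b7 (0.80 ± 0.29) and Sqle (0.43 ± 0.20) were higher of 25 tested. In fatty acid and surfactant lipid synthesis 4 of 29 were lower, Acoxl (-1.26), Fabp5 (-0.91), Acsl4 (-0.85) and Dgat1 (-0.66). Acoxl, an acyl-CoA oxidase-like protein abundant in AT2 cells, had counts of 578, 934 and 1259 in BRAF tumors and 100.2, 524 and 987 in BRAF/PI3KαH1047R tumors (exact p = 0.00635). Fatty acid oxidation had Ppargc1a alone (median 0.04, 28 tested), and lipid droplet proteins none of 19. Of cytochromes P450 4 were higher and 3 lower of 44, and without the 3 libraries that stood apart 0 were higher and 3 lower. Cyp2c40 was -3.60 ± 1.27 and Cyp1b1 -2.07 ± 0.66 (1781, 2349 and 4460.3 in BRAF tumors and 23.7, 748 and 2772 in BRAF/PI3KαH1047R tumors, exact p = 0.0206). NRF2 and glutathione genes had none of 32. In the ATF4 list Shmt1 was -0.65 and Slc3a2 0.48, and of aldehyde dehydrogenases and aldo-keto reductases Akr1b8 was -1.05.

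The cytosolic ribosomal protein and heat shock lists held more lower than higher members. Of 77 cytosolic ribosomal protein genes 11 were lower and Rps2 alone was higher, with a median of -0.26, and without the 3 libraries 5 were lower and 1 higher, with a median of -0.23. Rplp0 had counts of 604, 993 and 1499 in BRAF tumors and 369.6, 662 and 787 in BRAF/PI3KαH1047R tumors (-0.64 ± 0.20, exact p = 0.00794) and Rpl10a 1776, 2253 and 3155 in BRAF tumors and 723, 1743 and 2093 in BRAF/PI3KαH1047R tumors (-0.62 ± 0.20, exact p = 0.00952). Ribosomal protein genes have many pseudogenes, and their single values are uncertain. Heat shock proteins had 3 of 18 lower, Hsph1 (-1.16), Hspe1 (-0.58) and Hspd1 (-0.53), with a median of -0.37, and -0.50 without the 3 libraries, with 4 lower. Hspd1 and Hspe1 together form the mitochondrial chaperonin. Chaperones of the endoplasmic reticulum had Hspa5 (-0.41) and Calr lower of 26, proteasome subunits Psmd13 higher (0.75) of 38, and mitochondrial ribosomal proteins Mrps27 lower (-1.12) and Mrps31 higher (0.43) of 78. In the lysosome list Gpnmb (1.76, and 0.94 without BRAF tumor 1 at 2 weeks) was among the higher genes and Mitf (-1.05) was lower, of 32.

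Few cell cycle genes had an unadjusted p under 0.05. In G1 to S phase Rrm2 was higher (0.95 ± 0.41, exact p = 0.00635) and Prim1 lower (-0.81 ± 0.38) of 36. Among CDK inhibitors, p53 targets and senescence genes 4 of 28 were higher and none lower, Igfbp3 (2.04), Bax (0.54), Trp53inp1 (0.45) and Mdm2 (0.37), with a median of 0.17, and without the 3 libraries 2 were higher and 1 lower, with a median of 0.10. Bax, a pore-forming protein of apoptosis, had counts of 56.1, 106 and 168 in BRAF tumors and 109.8, 143 and 190.5 in BRAF/PI3KαH1047R tumors (exact p = 0.0159). Hypoxia genes had none of 26 at an unadjusted p under 0.05 in limma.

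Laminins, collagens, integrins and cadherins each held more higher than lower members, a balance that for collagens and cadherins turned without the 3 libraries that stood apart. Of 15 laminins and nidogens 3 were higher, Lamc3 (1.85), Lama4 (0.98) and Lamc1 (0.55), with a median of 0.41, and 0.14 without the 3 libraries, with 2 higher. Of 38 collagens 5 were higher and none lower, Col17a1 (1.49), Col3a1 (1.08), Col1a1 (0.94), Col4a1 (0.38) and Col4a2 (0.37), with a median of 0.05, and without the 3 libraries 0 were higher and 2 lower (median 0.03). Col17a1, a hemidesmosomal collagen of basal cells, had counts of 5.24, 11.7 and 51.5 in BRAF tumors and 14.2, 39.7 and 154 in BRAF/PI3KαH1047R tumors (exact p = 0.0175). Integrins Itga5, Itga6 and Itgb4 were 1.08, 0.84 and 1.10, and Itga9 was -0.70, which made 3 higher and 1 lower of 25, against 1 and 0 without the 3 libraries. Itga5, the fibronectin receptor subunit, had 145, 255 and 446 in BRAF tumors and 383, 432 and 949 in BRAF/PI3KαH1047R tumors (1.08 ± 0.32, exact p = 0.00635). Cdh2, N-cadherin, was 1.70 ± 0.61 (5.96, 21.1 and 89.4 in BRAF tumors and 16.3, 86.7 and 224 in BRAF/PI3KαH1047R tumors), while Cdh16 and Cdh18 were -1.68 and -1.26. Of 81 cadherins and protocadherins 5 were higher and 3 lower, and without the 3 libraries 0 and 4. The EMT core list had 5 of 25 higher and 1 lower, with a median of 0.17, and without the 3 libraries 0 higher and 0 lower, with a median of -0.05. Of 23 claudins and tight junction genes Cldn2 and Cldn3 were lower, at -2.32 and -1.33, and 0 were higher. The list's median was 0.14, with 13 positive differences, and without the 3 libraries 3 were higher and 0 lower. Cldn2 had 1312, 3228 and 4875 in BRAF tumors and 12.7, 783 and 3579.9 in BRAF/PI3KαH1047R tumors. Among proteases Adamts2 was 0.53 ± 0.17 (255, 307 and 543 in BRAF tumors and 348, 435 and 891 in BRAF/PI3KαH1047R tumors, exact p = 0.00159), Adamts10 0.87 and Adamts6 -1.09. Keratins had Krt79 alone (1.40), and the alveolar transitional state list none of 22. The guidance receptors and ligands Unc5a (2.93 ± 0.77, exact p = 0.00159) and Sema7a (1.87 ± 0.55, exact p = 0.00952) were higher, and Ntn5 (-2.59) and Ephb2 (-1.50) lower, of 59, a share near that of all genes in each direction.

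Secreted immune signals and complement held further differences. C4b, a complement component, had counts of 57.7, 235 and 336 in BRAF tumors and 274, 323 and 1307 in BRAF/PI3KαH1047R tumors (1.15 ± 0.32, exact p = 0.00794). The chemokines Cx3cl1 (1.42 ± 0.42, exact p = 0.00635), Ccl17 (2.58) and Cxcl9 (2.72) were higher and Cxcl15, given above, was lower of 28 tested, of which 10 had a negative difference. Cxcl9 reached 10022 in its highest BRAF/PI3KαH1047R library against a median of 174. Il2rg was 1.85 and Il1r1 -0.60 in a list of 56 interleukins and receptors with 2 higher and 2 lower.

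Large families were counted last. Of 260 solute carriers 10 were higher (3.85%) and 8 lower (3.08%), among them Slc4a1 (-1.63), Slc15a3 (1.61) and Slc25a35 (-0.94). Of 140 ion channels 4 were higher (2.86%) and 6 lower (4.29%), among them Trpv6 (-2.38), Scn3b (1.30) and Kcna6 (-2.51). These shares are near the 3.66% higher and 3.52% lower of all genes. Of 372 Zfp genes 18 were higher and 9 lower (Zfp867 1.87, Zfp184 -1.75). Nuclear receptors had 2 and 3 of 38, the lower being Rarb, Thrb and Esrrg (-1.79, -0.56 and -0.52). Without the 3 libraries that stood apart 3 nuclear receptors were higher and 0 lower, with a median of -0.06. SOX, FOX, KLF, GATA and T-box factors had 3 and 5 of 62 (Foxp3 -2.43). Imprinted genes other than Dlk1 had Peg10 (-1.61) and Ppp1r9a (-0.89) lower of 25. Canonical histone genes had Hist1h2ac (-2.05) and Hist2h2be (-0.99) lower and Hist3h2a (1.22) higher of 19. Gut lineage genes had Dmbt1 (-2.66) and Ctse (-1.80) lower of 13. HOX and neuroendocrine genes had none of 16 and 5.

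Whether pooling the weeks hid differences was asked with a genotype by week term. In limma no gene passed (0%), at a smallest adjusted p of 0.165, and 1225 genes had an unadjusted p under 0.05 (6.98%). At 2 weeks there is a single BRAF library, and both BRAF/PI3KαH1047R libraries there are among those that stood apart. Several genes had a larger difference at 2 weeks than later, such as Zmat4 (-6.90, -2.38 and -2.35 at 2, 6 and 12 weeks), Cldn2 (-5.37, -1.84 and -1.11) and Muc5b (-4.94, -0.90 and -1.59), and these week differences were not past the adjusted test.

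The precision was enough to bound many genes and not others. The 95% interval of the difference lay within 1 log2 unit of 0 for 8672 genes (49.4%), and for 3012 of the 3719 genes with a mean of at least 1000 normalized counts (81.0%). The median interval reached 0.72 on either side, and 980 genes had an interval wider than 4 log2 units.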

How the data were processed

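The signal values in the deposited table are normalized counts, which the authors made by estimating transcript abundance with Salmon at default settings and normalizing with DESeq2 in Galaxy, with GRCm38 named in the submitters' processing notes and the annotation not given in the sources used here. RNA came from RNeasy micro columns, libraries were made with Nugen Ovation Ultralow reagents, and reads were single-end, of 50 cycles. Depth in reads is unknown, so precision is the spread between libraries. The deposited tables of fold changes and p-values from the authors' comparisons, and the normalized table for the PGC1α comparison, were not used.

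Genes averaging 10 or more normalized counts entered a two-sided limma 3.58.1 fit (R 4.3.3, eBayes with trend) on log2 (normalized count + 1), with week as a 3-level factor and Benjamini-Hochberg adjustment over 17558 genes at 0.05. Single genes were also compared by exact permutation over the 630 splits within weeks. The scripts were tested on simulated data. The comparison, the 78 gene lists and the named genes were chosen with earlier results of these data known. Named were genes past the adjusted threshold and their relatives, the 12 genes with the smallest p in each direction (mean of at least 100, established symbol), up to 3 genes of each list with an unadjusted p under 0.05, and Pik3ca, Braf, Pik3r1 and 4 Y-linked genes; some genes of these lists are not reported here. Other genes in the text were named after their values were seen. Shared sequence was counted in 31-base words of GENCODE vM21 transcripts, and 97.8% of symbols matched. Alternatives were another pseudocount, filter, scaling, covariates, weights and a replicate block, and leaving out each week and each library. Added after seeing the data were leaving out the 3 libraries that stood apart and an AT2 marker score as covariate. Python 3.11.15 with numpy 2.4.6, pandas 2.3.3 and matplotlib 3.10.9 was used.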

Additional observations from a re-analysis of the deposited data

Results flagged for a closer look

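A library far from the others of its genotype was looked for in 324 sets of values, 1 for each named gene and genotype, by the gap of the highest or lowest library over the whole range (Dixon's 95% critical value). It was found in 13, and chance alone flags about 1 in 20. Among BRAF libraries Rps2 was highest in tumor 2 at 12 weeks (665.7 normalized counts), mt-Nd3 in tumor 1 at 2 weeks (482.0), and Hbb-bs in tumor 3 at 6 weeks (2876), where Peg10 was lowest (303.2). Hist3h2a was lowest in tumor 1 at 6 weeks (14.59). Kdm5d was highest in tumor 3 at 6 weeks (4319), the only BRAF library labelled male. Among BRAF/PI3KαH1047R libraries Trib1 (265.9), Uqcrc2 (434.1) and Hist2h2be (37.92) were lowest in tumor 1 at 2 weeks, 1 of the 3 libraries that stood apart. Tap1 (1583) and Pkm (5304) were highest and Cdh2 (16.33) lowest in tumor 1 at 12 weeks, the library with the highest macrophage marker sum. Cx3cl1 was highest in tumor 1 at 6 weeks (1001).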

How the results depend on the processing

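The 4 genes called became 9 with a pseudocount of 4, 15 with library weights, 8 without the 3 libraries that stood apart, 1 with labelled sex in the fit and both 12-week BRAF/PI3KαH1047R libraries left out, and 0 without the 6-week libraries; the cause was not tested. Leaving out each library gave 3 to 8 calls, the most without BRAF/PI3KαH1047R tumor 2 at 6 weeks or tumor 1 at 12 weeks. With the replicate block 6 genes were called, 3 in each direction, of which Dlk1 and AC165954.1 have the same values. The replicate numbers showed no pairing of libraries at 6 weeks. There the deviations of same-numbered libraries from their group means correlated at -0.28, -0.03 and -0.01. At 12 weeks each group has 2 libraries, whose deviations mirror each other, so the value of -0.15 cannot show whether they pair. Genes whose difference depends on week numbered 46 instead of 0 with no filter on low values, where more genes near 0 were tested, and 0 to 8 when leaving out each library, with 8 without BRAF/PI3KαH1047R tumor 2 at 2 weeks, 6 without tumor 1 at 6 weeks and 1 without BRAF tumor 2 at 12 weeks. Without the only BRAF library at 2 weeks that term could not be fitted in full. At an unadjusted p under 0.05, 643 higher and 618 lower genes became 371 and 277 with the macrophage marker score and 495 and 410 without BRAF tumor 1 at 2 weeks. Of 152 genes named at that threshold 81 kept it without each library in turn, 87 without that library and 39 with the macrophage score. No gene with an adjusted p under 0.05 reversed. Genes that did were not called: with the macrophage marker score in the fit Idh2 (0.0227), Gpnmb (-0.0787) and Rarb (0.12); with labelled sex Eif5a (0.0075), and with both 12-week BRAF/PI3KαH1047R libraries also left out Eif5a (0.22), Braf (0.0138) and Kdm5d (-0.20); without the 12-week libraries Braf (0.0024) and Eif5a (0.0535). Pik3r1 turned to -0.0013 with library weights, to -0.22 with the endothelial score and with the AT2 score, to -0.28 without the 3 libraries that stood apart, and to -0.12 without the 2-week libraries. Leaving out each library gave -0.12 to 0.38 for Pik3r1, negative only without BRAF tumor 1 at 2 weeks. Mettl7a1 turned to -0.17 and -0.22 with the endothelial and AT2 scores and to -0.15 without the 3 libraries. With 6 and 8 libraries at uneven weeks, genes whose interval is wide can hold differences that were not detectable here.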

Other observations

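Some genes had values at either of 2 levels. In 9 tested genes (0.0513%) no library lay between 10 and 100 normalized counts, at least 3 lay below and at least 3 above. Of these 4 were pseudogenes (44.4%, against 8.18% of genes tested). They were looked for after the values were seen. Gm6644, of which 89.9% of 31-base words occur in Akr1b3, the aldose reductase gene, was at 273 to 378 in all 6 BRAF libraries, at 337 in BRAF/PI3KαH1047R tumor 1 at 6 weeks and at 6.45 or less in the other 7. Gm10359 and Gm12671, whose words all occur in Gapdh and whose 14 values are the same, were at 0 in all 6 BRAF libraries, at 654 to 1827 in 6 BRAF/PI3KαH1047R libraries and at 0 in the tumors 1 at 2 and 12 weeks. Eno1b was at 234 to 880 in all BRAF libraries and at 8.43 or less in 3 of 8 BRAF/PI3KαH1047R libraries. Gkn2, which encodes a gastrokine, was at 142 to 975 in BRAF libraries, at 2.05 to 5.10 in the 3 libraries that stood apart and at 325 to 1366 in the other 5 with PI3KαH1047R. In all, 191 tested genes had the same 14 values as another tested gene.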
